A study of Mus musculus with 87 samples.

Results

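The genes described here are 9 myelin genes of mature oligodendrocytes, Mbp, Mog, Mag, Mal, Mobp, Cnp, Cldn11, Ermn and Opalin, taken by symbol and not by any measured value, and all 9 were found among the 48526 genes of the plate table and in the single-nucleus table. They were followed in nuclei of the ventral midbrain of wildtype C57BL/6J mice, adult males and females of 6 to 12 months by the study's methods, after bilateral stereotaxic injection of 400 nL saline, alone or with 40 ng IFN-γ (interferon-gamma, the cytokine by which T cells and natural killer cells activate other cells). Mice were killed 6, 24, 48 or 72 h later, and nuclei were sorted on NeuN, a protein of most neuronal nuclei, into NeuN+ (neuronal) and NeuN- (largely glial) fractions that were sequenced as pools in plate wells. Each fraction held 42 wells: 6 IFN-γ wells at each time, and 4, 6, 4 and 4 saline wells at 6, 24, 48 and 72 h. In a separate experiment single nuclei of both fractions, 48 h after injection, were profiled from 1 saline mouse and 2 IFN-γ mice. All animals carried the wildtype genotype, and the saline mice also underwent the injection, so every comparison is between 2 injected groups. The fraction of each well comes from the study's own table of well barcodes, because GEO's labels give NeuN+ throughout, and the data were checked for it.

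Myelin is the lipid-rich membrane that oligodendrocytes wrap around axons. Mbp (myelin basic protein) seals the inner faces of that membrane together, Mobp is another small basic protein of compact myelin, and Mal is a proteolipid of membrane trafficking. Cldn11 is the tight-junction claudin of the sheath, Mog and Mag are immunoglobulin-family proteins at its outer surface and at its contact with the axon, and Cnp is a phosphodiesterase that keeps cytoplasmic channels open. Ermn (ermin) is a cytoskeletal protein, and Opalin is a transmembrane glycoprotein, of mature oligodendrocytes.

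The stretches of 250 bases before the annotated start are shown for Mog, Mal and Cldn11, the members with the largest falls at 24 h described below, and for Mag and Mobp, whose windows held the most motif matches. Sequences are from RefSeq, build GRCm38.p6, written 5′ to 3′ on the gene's own strand, with matches in capitals. 8 of the 9 members had an entry, all protein-coding genes, and Mbp had none. The windows are chr17:37023399-37023648 on the minus strand for Mog, chr2:127656696-127656945 on the minus strand for Mal, chr3:31149670-31149919 on the plus strand for Cldn11, chr7:30914864-30915113 on the minus strand for Mag (1 of 3 entries) and chr9:120149492-120149741 on the plus strand for Mobp.
Mog: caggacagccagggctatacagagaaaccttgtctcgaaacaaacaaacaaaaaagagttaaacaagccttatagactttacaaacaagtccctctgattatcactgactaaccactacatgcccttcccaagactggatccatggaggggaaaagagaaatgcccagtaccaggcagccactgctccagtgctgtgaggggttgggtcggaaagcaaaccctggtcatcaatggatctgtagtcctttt
Mal: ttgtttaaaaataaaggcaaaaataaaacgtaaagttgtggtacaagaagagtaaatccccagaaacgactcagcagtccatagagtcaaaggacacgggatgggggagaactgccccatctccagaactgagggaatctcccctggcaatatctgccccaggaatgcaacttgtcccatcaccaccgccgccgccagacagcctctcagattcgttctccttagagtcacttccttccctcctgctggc
Cldn11: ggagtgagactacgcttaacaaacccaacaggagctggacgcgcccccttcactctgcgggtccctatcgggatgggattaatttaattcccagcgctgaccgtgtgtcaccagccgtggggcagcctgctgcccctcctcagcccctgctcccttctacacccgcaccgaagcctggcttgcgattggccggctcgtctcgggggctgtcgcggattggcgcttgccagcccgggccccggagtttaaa
Mag: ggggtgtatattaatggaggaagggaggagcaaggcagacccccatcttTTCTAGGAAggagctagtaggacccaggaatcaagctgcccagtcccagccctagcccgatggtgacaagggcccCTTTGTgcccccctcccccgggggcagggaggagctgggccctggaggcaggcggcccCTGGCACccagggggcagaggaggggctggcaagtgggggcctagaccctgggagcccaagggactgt
Mobp: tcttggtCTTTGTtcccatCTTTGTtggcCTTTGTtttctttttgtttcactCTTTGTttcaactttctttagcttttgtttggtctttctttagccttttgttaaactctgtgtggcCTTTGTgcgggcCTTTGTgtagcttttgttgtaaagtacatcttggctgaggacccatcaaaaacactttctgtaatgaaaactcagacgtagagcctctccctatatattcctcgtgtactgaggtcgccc
Both strands were searched for GAS (TTCNNNGAA, the gamma-activated site), ISRE (a pair of GAAA half-sites 2 bases apart, bound by interferon regulatory factors), ACAAAG (a SOX motif) and CTGGCAC (a motif of the oligodendrocyte factor MYRF). Among 32851 promoter windows of this length, 7.02% held GAS, 2.98% ISRE, 16.5% the SOX motif and 4.19% the MYRF motif. The Mag window printed held 1 match each to GAS, SOX and MYRF, at 201, 126 and 68 bases before the start. The second Mag entry, which overlaps it, had them at 142, 67 and 9 bases, and the third held none. The Mobp window held 6 matches to the SOX motif. Cnp had a SOX match at 167 and a MYRF match at 81 bases before the start, and Opalin a SOX match at 139 bases. No window of a member held an ISRE, and those of Mog, Mal, Cldn11 and Ermn held no match of any kind. An absent match says only that these letters are not in this window.

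Wells held between 20962 and 301445 UMIs (unique molecular identifiers, each a captured RNA molecule) in the NeuN- fraction and between 277113 and 1684374 in the NeuN+ fraction, and levels are given as CPM, UMI counts scaled to the same total in every well. Behind a NeuN- value stood 8 to 396 UMIs for Mbp and 0 to 20 for Cnp, so the lower members carry more counting error. Of 186 pairs of wells of the same group, 1 pair (NeuN- IFN-γ 6 h, wells 2 and 5) did not differ beyond sampling noise (chi-square per gene 1.02) and was counted as 1 sample in levels (n = 5), while fits kept both wells. The 4 to 6 wells of a group came from 2 to 3 mice, with no record in the sources used here of the mouse behind each well. Some wells of a group therefore share an animal, and p-values over wells are too small as tests between mice. The IFN-γ response checked the treatment labels: Gbp2, an interferon-induced GTPase, was at 1174 to 1708 CPM in NeuN- IFN-γ wells at 24 h and at 0 to 11 CPM in the saline wells. Levels of Xist, the RNA of the inactive X chromosome, showed that the sexes were not balanced between groups: its median in NeuN- IFN-γ wells was 4036 CPM at 6 h and 5022 CPM at 48 h, but 188 CPM at 24 h and 138 CPM at 72 h. Saline wells at 24 h were mixed (123 to 3618 CPM) and those at 72 h ranged from 39.6 to 1272 CPM. Results are therefore also given below within low-Xist wells at 24 h. At 6 h Xist overlapped between the NeuN- groups, but the Y-linked gene Eif2s3y did not. It was at 110 to 160 CPM with saline and at 0 to 9.65 CPM with IFN-γ. The part of this imbalance in the 6 h differences was not tested. In bulk wells, fewer oligodendrocyte nuclei and less RNA per nucleus cannot be told apart.

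The 9 genes marked the NeuN- fraction. Over the saline wells of all times the log2 difference of NeuN+ from NeuN- wells was between -3.47 (Cnp) and -4.91 (Mog and Opalin), with edgeR adjusted p from 1.6e-22 for Cnp to 9.5e-45 for Mog. All 9 members were called lower (|log2 fold change| over 0.5, adjusted p under 0.01), where 27.6% of all genes tested were lower. At 24 h the NeuN+ mean of the saline wells was 5.53% of the NeuN- mean for Mbp and 4.32% for Mog. A neuronal marker list of 11 genes showed the other side of the sort, with summed levels of 2555 to 3814 CPM in NeuN+ wells and 59.3 to 480 CPM in NeuN- wells. Myelin genes thus took a smaller share of the RNA of a NeuN+ well than of a NeuN- well, and since NeuN+ wells were deeper their UMI counts differed less. The source of the myelin RNA in NeuN+ wells was not tested.

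At 6 h after IFN-γ, 3 of the 9 members had already fallen in NeuN- wells. Mbp stood at 1240, 1524, 1599 and 1212 CPM in the saline wells, against a lowest, median and highest of 382, 630 and 704 CPM with IFN-γ. The groups did not overlap, and Mbp fell by 1.29 ± 0.12 on the log2 scale (SE, edgeR adjusted p = 9.9e-11). Mog was at 704, 702, 630 and 506 CPM with saline and at 191, 311 and 357 CPM with IFN-γ, a log2 change of -1.05 ± 0.13 (adjusted p = 7.5e-08). Mal was at 203, 206, 180 and 181 CPM with saline and at 62.2, 77.2 and 107 CPM with IFN-γ, a log2 change of -1.31 ± 0.23 (adjusted p = 2.7e-05). In each of these 3 genes every IFN-γ well was below every saline well, which held for 8.35% of genes tested in that direction. Lower calls (|log2 fold change| over 1, adjusted p under 0.01) made up 3.87% of all 2660 genes tested, and calls in either direction 11.7%.

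The other members were not called at 6 h. Opalin was at 210, 283, 290 and 200 CPM with saline and at 116, 141 and 286 CPM with IFN-γ, a log2 difference of -0.85 ± 0.21 (adjusted p = 0.0012) that did not reach the size needed for a call and whose groups overlapped in 1 IFN-γ well. With the 3 called members it made 4 of 9 past the adjusted p alone, against 22.9% of genes tested. Mag was at 631, 651, 470 and 487 CPM with saline and at 429, 752 and 774 CPM with IFN-γ (log2 difference 0.34 ± 0.12, adjusted p = 0.033), the only member with a positive difference at this time. Mobp (-0.23 ± 0.10, adjusted p = 0.071), Cldn11 (-0.31 ± 0.19, 0.21) and Ermn (-0.35 ± 0.14, 0.061) overlapped between groups, and Cnp was under the filter on low counts. The balance between members moved with this. Mbp made up 24.5 to 30.7% of the members' summed level in saline wells and 12.5 to 20.2% with IFN-γ, while Mag made up 9.0 to 12.5% and 15.5 to 22.6%. The median log2 difference of the 8 tested members was -0.60, and that of all genes was -0.00. The shallowest well, IFN-γ well 1 with 20962 UMIs, gave the lowest Mbp (8 UMIs), Mog (4 UMIs), Mag and Ermn and the highest Opalin of its group. The same 3 members were called without that well. Without IFN-γ well 3 Mog was at -0.98, just short of the size needed.

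**Figure D1:**
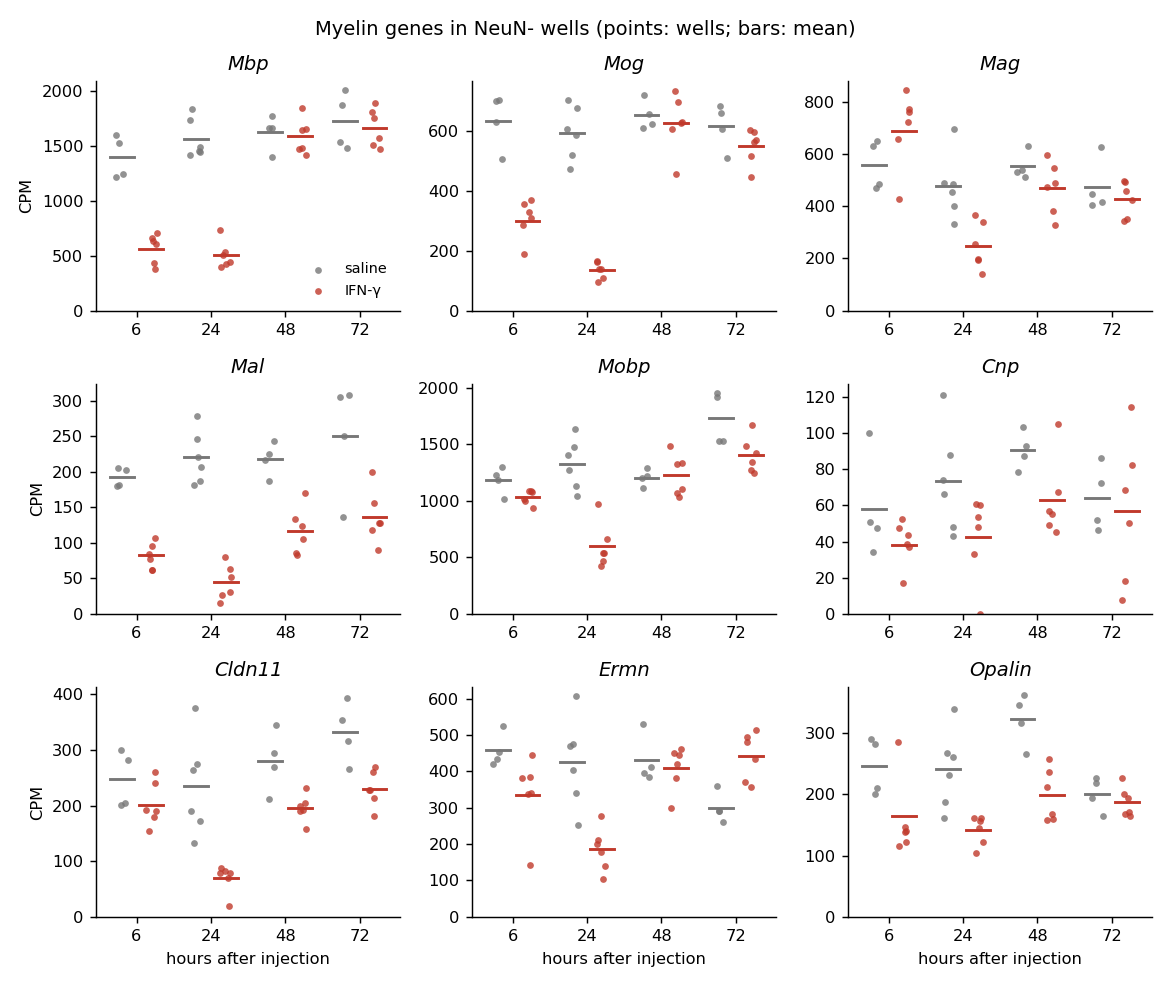
Levels of the 9 myelin genes in the NeuN- wells, in CPM, against hours after injection, with 1 point per well, saline and IFN-γ side by side and a bar at each group's mean. At 24 h the IFN-γ wells lie below the saline wells without overlap for Mbp, Mog, Mal, Mobp and Cldn11, and at 48 and 72 h the groups mostly overlap.

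The largest differences were at 24 h, when 7 of 9 members were called lower in NeuN- wells, against 7.38% of the 1883 genes tested (14.6% called in either direction). Mal had the largest fall: the saline wells had a lowest, median and highest of 182, 214 and 279 CPM and the IFN-γ wells of 14.7, 41.4 and 80.4 CPM, a log2 change of -2.46 ± 0.26 (edgeR adjusted p = 5.5e-09). Mog went from 475, 596 and 703 CPM to 95.7, 139 and 166 CPM (-2.21 ± 0.16, adjusted p = 5.3e-12). Cldn11 went from 133, 228 and 376 CPM to 20.1, 78.9 and 88.3 CPM (-1.79 ± 0.23, adjusted p = 3.1e-07), and the lowest of its IFN-γ wells stood apart from the others. These 3 encode a proteolipid, a surface protein and a tight-junction protein of the sheath. Mbp, from 1418, 1467 and 1833 CPM to 399, 470 and 736 CPM, fell by 1.78 ± 0.14 (adjusted p = 1.7e-11). Mobp, from 1039, 1339 and 1632 CPM to 422, 536 and 969 CPM, fell by 1.17 ± 0.15 (adjusted p = 1.5e-07). In these 5 genes the groups did not overlap, as in 9.13% of genes tested in the lower direction.

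Mag and Ermn also fell at 24 h, with overlapping groups. Mag was at 332, 471 and 695 CPM with saline and at 141, 227 and 368 CPM with IFN-γ (-1.07 ± 0.19, edgeR adjusted p = 2.9e-05), and Ermn was at 254, 437 and 606 CPM and 103, 189 and 278 CPM (-1.18 ± 0.20, adjusted p = 2e-05). Mag lost its call without saline well 2 (-0.95), without IFN-γ well 1 (-0.94) and without IFN-γ well 6 (-1.0), and with no filter on low counts (-0.89). Opalin, at 161, 246 and 339 CPM and 104, 150 and 162 CPM, had a log2 difference of -0.89 ± 0.19 (adjusted p = 0.00026), so all 8 tested members passed the adjusted p alone, against 30.7% of genes. Cnp, at 43.3, 70.2 and 121 CPM and 0, 51.0 and 60.9 CPM, was under the filter. The median log2 difference over the 8 tested members was -1.48, and over all genes it was 0.01. Among wells with Xist under 500 CPM (2 saline, 6 IFN-γ) the log2 changes were -1.88 for Mbp, -2.11 for Mog, -2.70 for Mal, -1.81 for Cldn11, -1.29 for Mobp and -1.09 for Mag, all still called. Ermn was then at -0.89 (adjusted p = 0.0074) and no longer called, and Opalin was at -0.80 (adjusted p = 0.020). The 2 saline wells of this fit may come from the same mouse, so its adjusted p-values hold between wells and not between mice.

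Some other genes of myelin and of mature oligodendrocytes were also called lower in NeuN- wells. Of the 32 such genes in the plate table, 18 passed the filter at 6 h and 6 of them fell, among them Gpr37, an orphan receptor of oligodendrocytes (-1.81 on the log2 scale), and Lpar1, a lysophosphatidic acid receptor (-1.54). At 24 h 6 of 13 tested fell, among them Anln (anillin, -1.93 ± 0.17) and Lpar1 (-1.63 ± 0.23). Their median log2 difference was -0.73 at 6 h and -0.87 at 24 h. A further list held 15 regulators and other genes of the oligodendrocyte lineage, called regulators here although some, such as Plekhh1, are expression markers. Of these 0 of 9 tested were called lower at 6 h and 1 of 8 at 24 h, Plekhh1 (-2.25 ± 0.21). Tcf7l2, a transcription factor of the Wnt pathway, was higher at 6 h (1.28 ± 0.26). The median of this list was -0.40 at 6 h and -0.75 at 24 h, and all 8 tested at 24 h passed the adjusted p alone. Summed over the list, the 9 members had 4531 to 6053 CPM in saline wells at 24 h and 1667 to 2289 CPM with IFN-γ. The regulators summed to 13101 to 15788 CPM and 8257 to 9229 CPM in the same wells. The ratio of the members' sum to the regulators' sum was 0.326 to 0.432 with saline and 0.197 to 0.258 with IFN-γ, without overlap. At 6 h it was 0.333 to 0.380 and 0.246 to 0.325, and at 72 h 0.375 to 0.397 and 0.324 to 0.362, again without overlap, while at 48 h the ranges overlapped (0.336 to 0.377 and 0.308 to 0.375).

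Genes of other cell types moved in the NeuN- wells as well. At 24 h the summed level of 12 astrocyte markers was 1018 to 2167 CPM with saline and 2748 to 3769 CPM with IFN-γ. Of these markers 3 of 4 tested were called higher, among them Slc1a2, the glial glutamate transporter (1.33 on the log2 scale), and Slc4a4 (1.02). Calls in either direction made up 14.6% of all genes tested at 24 h. The 12 genes of precursors and newly formed oligodendrocytes summed to 981 to 2419 CPM with saline and 3165 to 3648 CPM with IFN-γ. In NeuN+ saline wells at 24 h they summed to 2000 to 2100 CPM, so this sum does not mark precursors alone. In NeuN- wells 1 of 5 tested was called higher, Ptprz1, a receptor phosphatase of precursors and astrocytes (1.71 ± 0.17), while Gpr17, which marks committed precursors, was at 0 in both groups. Vascular markers, 9 genes of which 0 passed the filter and the endothelial claudin Cldn5 was at 0, summed to 33.1 to 163 CPM and 107 to 280 CPM. The 12 microglial markers summed to 341 to 601 CPM and 265 to 391 CPM at 24 h. At 6 h they summed to 464 to 608 CPM with saline and 47.7 to 193 CPM with IFN-γ. There Tmem119 and Trem2 were at 0 with IFN-γ only, and Itgam was at 0 in both groups. At 6 h, when Mbp, Mog and Mal were already lower, the astrocyte sum was 1173 to 1336 CPM with saline and 906 to 1383 CPM with IFN-γ, and the ranges overlapped. At 48 h the astrocyte sum was again higher with IFN-γ (1597 to 1858 CPM, against 749 to 1327 CPM), while the members' sum overlapped (5030 to 5703 CPM with saline, 4484 to 5275 CPM with IFN-γ) and that of the other myelin genes did not (12908 to 14246 and 10926 to 12890 CPM). The part of a shift in the cell types sorted into the NeuN- wells in the lower myelin levels was not tested.

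**Figure D2:**
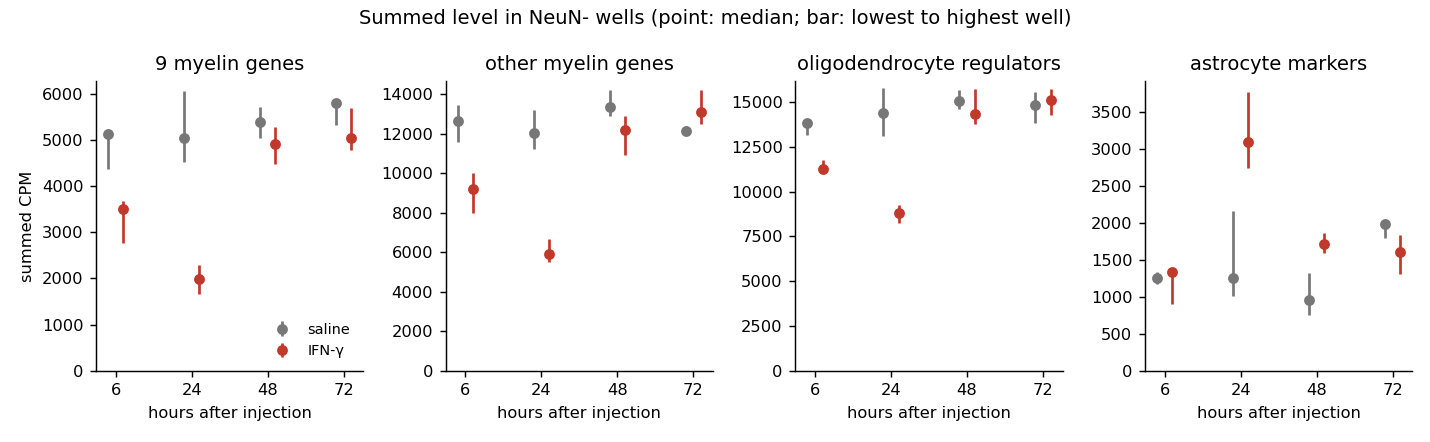
Summed levels of the members, other myelin genes, the list of oligodendrocyte regulators and other lineage genes, and astrocyte markers in NeuN- wells, in CPM, against hours after injection. Each point is the median of the saline or IFN-γ wells, and its bar runs from the lowest to the highest well. The members' sum at 24 h is 1667 to 2289 CPM with IFN-γ and 4531 to 6053 CPM with saline, while the astrocyte sum lies higher with IFN-γ at 24 h.

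At 48 h most members overlapped between saline and IFN-γ in NeuN- wells. Mbp was at 1395, 1769, 1661 and 1661 CPM with saline and at 1415, 1559 and 1844 CPM with IFN-γ, a log2 difference of -0.00 ± 0.10 (edgeR adjusted p = 0.99). Mog was at 721, 657, 610 and 624 CPM and 455, 629 and 736 CPM, with overlapping groups. Mal and Opalin were the 2 members whose groups did not overlap, as in 3.27% of genes tested in the lower direction. Mal stood at 187, 244, 216 and 225 CPM with saline and at 82.9, 115 and 171 CPM with IFN-γ (-0.86 ± 0.22, adjusted p = 0.0091). Opalin stood at 316, 345, 265 and 362 CPM and 159, 190 and 258 CPM (-0.68 ± 0.17, adjusted p = 0.0087). Both passed the adjusted p, as did 3.78% of genes, but not the size needed for a call, so edgeR called 0 of 9 members, against 1.4% of genes, with 3 at an unadjusted p under 0.05, and DESeq2 called 0. Ermn (384 to 531 and 299 to 463 CPM), Mag (512 to 632 and 330 to 597 CPM) and Mobp (1115 to 1288 and 1032 to 1484 CPM) overlapped, as did Cnp (78.6 to 104 and 45.0 to 105 CPM), which was not tested. The Cldn11 difference was -0.48 ± 0.17 (adjusted p = 0.079), at 270, 345, 295 and 212 CPM with saline and 158, 197 and 231 CPM with IFN-γ.

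At 72 h edgeR called 0 of 9 members in NeuN- wells, where 1.13% of genes were called, with 4 members at an unadjusted p under 0.05, and DESeq2 called 0. Mal, the proteolipid, was at 309, 305, 136 and 251 CPM with saline and at 89.3, 128 and 200 CPM with IFN-γ, and was the 1 member past the adjusted p alone, as were 2.23% of genes (log2 difference -0.94 ± 0.21, edgeR adjusted p = 0.0031). Its groups overlapped through saline well 3, and without that well it was at -1.11 and called, as it was without IFN-γ well 4 (-1.05). Ermn went the other way, at 359, 260, 291 and 291 CPM with saline and 357, 457 and 514 CPM with IFN-γ (0.53 ± 0.15, adjusted p = 0.029). Mbp differed by -0.07 and Mog by -0.17 on the log2 scale, and the sum over the 9 members was 5327 to 5855 CPM with saline and 4783 to 5680 CPM with IFN-γ. Mobp, at 1531 to 1957 CPM and 1249 to 1672 CPM, and Cldn11, at 266 to 394 CPM and 181 to 269 CPM, had log2 differences of -0.33 ± 0.09 (adjusted p = 0.032) and -0.54 ± 0.16 (adjusted p = 0.044). Opalin (165 to 227 CPM in both groups) and Mag (403 to 626 and 342 to 499 CPM) overlapped, and Cnp, again under the filter, was at 46.2 to 86.3 CPM and 7.44 to 114 CPM. Mal was thus the member with the lowest fitted difference at 24, 48 and 72 h. Among other myelin genes edgeR made 0 calls at 48 h (18 genes) and 0 at 72 h (20 genes), where 0 and 1 passed the adjusted p alone.

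The change of the IFN-γ effect with time was itself tested, as the log2 effect at 24 h minus that at another time. These 3 tests share the wells of 24 h. Median Xist in the IFN-γ wells was 188 CPM at 24 h but 4036 and 5022 CPM at 6 and 48 h. Sex and time therefore cannot be fully told apart in the tests against 6 and 48 h. Against 6 h the effect at 24 h was lower for 3 members, Mag (-1.42 ± 0.23, edgeR adjusted p = 2e-06), Cldn11 (-1.47 ± 0.28, adjusted p = 7.2e-05) and Mog (-1.16 ± 0.20, adjusted p = 1.4e-05), against 2.57% of genes. For Mbp that difference was -0.50 (adjusted p = 0.064), so its early and later falls were not distinguished by this test. Mal (-1.15, adjusted p = 0.021) passed without IFN-γ 24 h well 1 (-1.43), Mobp (-0.93) without IFN-γ 24 h well 2 (-1.16), and Ermn (-0.83) without saline 24 h well 5 (-1.0). Against 48 h the effect at 24 h was lower for 6 members (4% of genes): Mog by 2.13, Mbp by 1.75, Mal by 1.55, Cldn11 by 1.26, Mobp by 1.19 and Ermn by 1.12, the last not without saline 24 h well 2 (-0.97) or with Xist as a covariate (-0.90, adjusted p = 0.016). Against 72 h it was lower for 5 members (4.73% of genes): Mog (-1.99), Mbp (-1.68), Ermn (-1.67), Mal (-1.48) and Cldn11 (-1.20), the last not without the filter on low counts (adjusted p = 0.022). Mag was at -0.88, and at -1.08 and called without saline 72 h well 3, and Mobp at -0.79, and at -1.04 and called without IFN-γ 24 h well 2. Opalin (-0.04, -0.17 and -0.72 against 6, 48 and 72 h) and Cnp (-0.17, -0.25 and -0.57) were called in none of the 3 tests. Of the other myelin genes 7 of 23 tested had a lower effect at 24 h than at 48 h, among them Cntn2, a cell-adhesion protein of the axon's contact with myelin (-2.39), and 3 of 10 regulators lower, including Myrf, the factor that drives myelin gene transcription (-1.55).

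In NeuN+ wells the members were at low levels and edgeR called 0 of 9 at 6, 24, 48 or 72 h, where 1.37, 1.73, 0.169 and 0.766% of genes were called. At those times 3, 5, 5 and 6 members had an unadjusted p under 0.05, and DESeq2 called 0, 0, 0 and 1. Cnp was under the filter at every time, Mal at 6 and 24 h and Opalin at 6 h, so they were not tested there. Without the filter Mal was at -1.28 at 6 h and -1.08 at 24 h, and Opalin at -1.63 at 6 h, with none called. At 6 h Mbp was at 65.0, 63.3, 58.1 and 91.3 CPM with saline and at 32.6, 35.3 and 51.4 CPM with IFN-γ, the 1 member past the adjusted p alone (-0.93 ± 0.16, edgeR adjusted p = 0.00013), as were 4.31% of genes. Its groups did not overlap, nor did those of Mobp (45.4 to 63.4 and 27.2 to 44.6 CPM) and Opalin (7.03 to 8.84 and 0 to 4.47 CPM), in the lower direction shown by 2.51% of genes tested. Mbp was called without saline well 2 (-1.0), saline well 3 (-1.03) or IFN-γ well 4 (-1.01), and Mal, otherwise under the filter, without saline well 3 (-1.59). The astrocyte sum in these wells was 249 to 332 CPM with saline and 191 to 241 CPM with IFN-γ, also without overlap, and its part in the Mbp difference was not tested. At 6 h 3 of 17 other myelin genes were called lower in NeuN+ wells, among them Gjc3, a gap-junction connexin, at -1.12.

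At 72 h the NeuN+ differences had the opposite sign. Mbp was at 90.0, 81.4, 79.0 and 104 CPM with saline and at 117, 140 and 153 CPM with IFN-γ (0.57 ± 0.10, edgeR adjusted p = 0.00013). Mog was at 17.4, 18.5, 14.7 and 23.8 CPM and 31.3, 41.9 and 46.0 CPM (0.98 ± 0.19, adjusted p = 0.00058), just short of the size for a call, which it met without saline well 4 (1.12), IFN-γ well 1 (1.03) or IFN-γ well 2 (1.07). With Mag (12.6, 19.4, 22.1 and 25.4 CPM, and 28.9, 31.4 and 39.0 CPM) these were the 3 members whose groups did not overlap, as in 4.63% of genes in the higher direction. Together with Mobp (0.56 ± 0.12, adjusted p = 0.0023), Mbp and Mog made 3 members past the adjusted p alone, against 3.6% of genes. The members' sum was 217 to 284 CPM with saline and 358 to 450 CPM with IFN-γ, and the regulators' sum was 1167 to 1574 CPM and 1809 to 2098 CPM. The sums of other myelin genes (759 to 926 and 1175 to 1416 CPM) and of the 12 astrocyte markers (291 to 333 and 384 to 441 CPM) were higher with IFN-γ too, without overlap, and their part in the members' differences was not tested. At 48 h Ermn was the 1 member wholly above saline (9.22 to 15.1 and 18.7 to 25.1 CPM, 0.97 ± 0.24, adjusted p = 0.055).

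**Figure D3:**
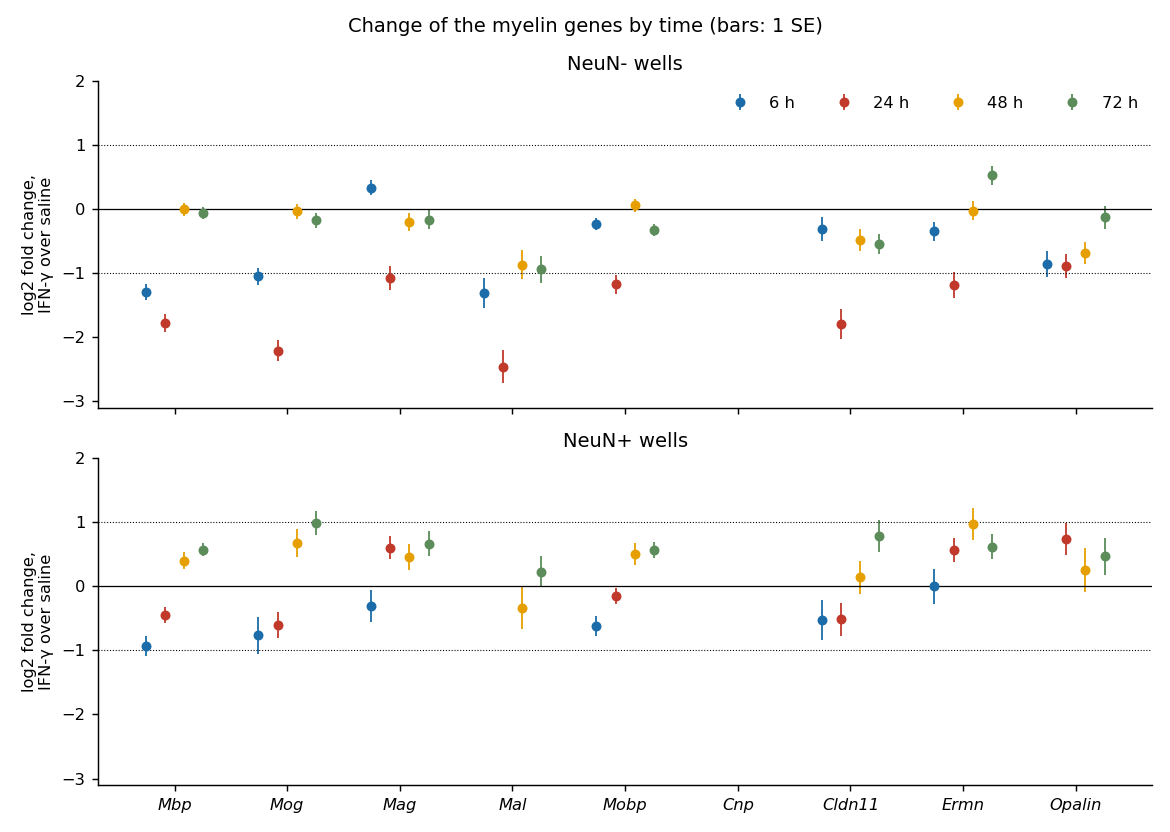
Log2 fold changes of IFN-γ against saline for each member at 6, 24, 48 and 72 h in NeuN- and NeuN+ wells, with bars of 1 SE from edgeR. In NeuN- wells 8 members lie below 0 at 24 h, down to -2.46 for Mal, and in NeuN+ wells the members lie above 0 at 72 h, up to 0.98 for Mog.

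Whether the IFN-γ effect differed between fractions was tested as an interaction, NeuN+ minus NeuN-. At 24 h the effect was higher in NeuN+ wells for 5 members, against 1.97% of genes in that direction: Ermn by 1.64 ± 0.28 (edgeR adjusted p = 3.1e-05), Mag by 1.57 ± 0.26 (adjusted p = 1.1e-05), Opalin by 1.52 ± 0.32 (adjusted p = 0.00059), Mog by 1.49 ± 0.25 (adjusted p = 2.5e-05) and Mbp by 1.26 ± 0.18 (adjusted p = 4.8e-07). Mobp (0.89, adjusted p = 0.0015) was called without NeuN+ saline well 2 (1.03), NeuN+ saline well 5 (1.01) or NeuN- IFN-γ well 2 (1.14). All 5 had a lower effect in the fraction where these genes were high. In NeuN+ wells at 24 h the astrocyte sum was 175 to 417 CPM with saline and 447 to 516 CPM with IFN-γ, without overlap. That of other myelin genes overlapped (699 to 925 and 721 to 872 CPM). The part of such glial RNA in the interaction was not tested. Seen as shares, the NeuN+ mean was 3.37 to 9.67% of the NeuN- mean over the 9 members with saline and 9.82 to 15.8% with IFN-γ. At 72 h 2 members were higher in the interaction (0.254% of genes): Mog by 1.16 ± 0.21 (adjusted p = 0.00062) and Cldn11 by 1.35 ± 0.28 (adjusted p = 0.0036). Cldn11 lost that call without NeuN- saline well 2 (1.27), NeuN+ saline well 2 (1.28) or NeuN+ IFN-γ well 6 (1.23), and Mobp gained it without NeuN- saline well 1 (1.0) or NeuN+ saline well 2 (1.12). At 6 and 48 h edgeR called 0 of 9 members, where 2.53 and 0.128% of genes were called, with 2 and 6 members at an unadjusted p under 0.05, and DESeq2 called 0.

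Within NeuN+ wells the effect at 24 h was compared with the other times in the same way. Opalin was higher at 24 h than at 6 h (2.41 ± 0.54, edgeR adjusted p = 0.0045), the 1 member of 9 called, against 0.429% of genes, and it lost the call without saline 6 h wells 2, 3 or 4 or IFN-γ 6 h well 2 (2.27 to 2.47). Mog was lower at 24 h than at 48 h (-1.29 ± 0.29, adjusted p = 0.0067), again 1 of 9, against 0.237% of genes. That call did not hold without any one of 10 wells (-1.14 to -1.27), which were saline 24 h wells 2, 4 and 5, saline 48 h wells 2 and 4, IFN-γ 24 h wells 2 and 3, and IFN-γ 48 h wells 4, 5 and 6. Mbp, at -0.85, was called without saline 48 h well 2 (-1.09). Against 72 h 2 members were lower at 24 h (0.42% of genes): Mog (-1.60 ± 0.29, adjusted p = 0.00015) and Mbp (-1.02 ± 0.18, adjusted p = 0.0001). Mbp lost that call without saline 72 h well 2 (-0.97), saline 24 h well 5 (-0.89), IFN-γ 24 h well 2 (-0.97), or IFN-γ 72 h wells 3 or 6 (both -1.0). Cldn11 gained it without saline 24 h well 3 (-1.42), IFN-γ 24 h well 2 (-1.45), or IFN-γ 72 h wells 2 (-1.40) or 4 (-1.39).

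In the single-nucleus experiment 1241 of 4699 nuclei fell into 3 clusters named oligodendrocyte-like from marker genes, and 1241 was also the count when the 9 members were among the clustering genes and at lower or higher cluster resolution. They were 191 of 1016 nuclei (18.8%) of the saline mouse and 744 of 2574 (28.9%) and 306 of 1109 (27.6%) of the IFN-γ mice, and these shares were set in part by the mixing of sorted fractions before capture. The groups shared no barcode. The clusters divided unevenly between mice. Cluster 0, led by Neat1, Il33 and Bcas1 and by the interferon-induced Iigp1, Tgtp2 and Irgm2, held 0 saline nuclei and 493 and 196 IFN-γ nuclei. Cluster 3, led by Apod, Anln and Enpp6, held 75, 213 and 104 nuclei, and cluster 10, led by Ptgds, Mal, Slc13a1 and Opalin, held 116, 38 and 6. Levels below are for all oligodendrocyte-like nuclei of a mouse, in the order saline, IFN-γ mouse 1 and IFN-γ mouse 2.

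At 48 h Mal was the member that differed most in these nuclei. It was at 1149 CPM in the saline mouse (95% Poisson interval 1071 to 1232), and at 623 (593 to 653) and 561 (523 to 601) CPM in the IFN-γ mice. The fit gave a log2 difference of -0.89 ± 0.14 (edgeR adjusted p = 2.7e-08), the 1 member past the adjusted p alone, against 1.54% of 12806 genes tested. With 1 saline mouse its spread was taken from the IFN-γ mice, and intervals cover counting error only. Opalin, the glycoprotein, was at 204 (172 to 241), 122 (109 to 136) and 127 (110 to 147) CPM (-0.65 ± 0.19, adjusted p = 0.027). Cldn11 was at 675, 518 and 445 CPM (-0.41 ± 0.15, adjusted p = 0.13) and Ermn at 491, 329 and 379 CPM (-0.41 ± 0.15, adjusted p = 0.19). Cnp was at 441, 340 and 373 CPM (-0.24 ± 0.16, adjusted p = 0.60). Mbp, at 4931, 4978 and 4824 CPM, and Mog, at 1172, 1030 and 1077 CPM, were close in the 3 mice, as were Mobp (1708, 1633 and 1479 CPM) and Mag (906, 795 and 857 CPM), with log2 differences of 0.06, -0.09, -0.06 and -0.07. None of the 9 members differed by more than 1 on the log2 scale with adjusted p under 0.01, where 1.07% of genes did, nor by more than 3, where 0.57% did. By edgeR 4 members had an unadjusted p under 0.05, and DESeq2 also called 0 members and gave Mal -0.86 (adjusted p = 0.0015). Of the other myelin genes 0 of 31 tested were called, and of the regulators 0 of 15.

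**Figure D4:**
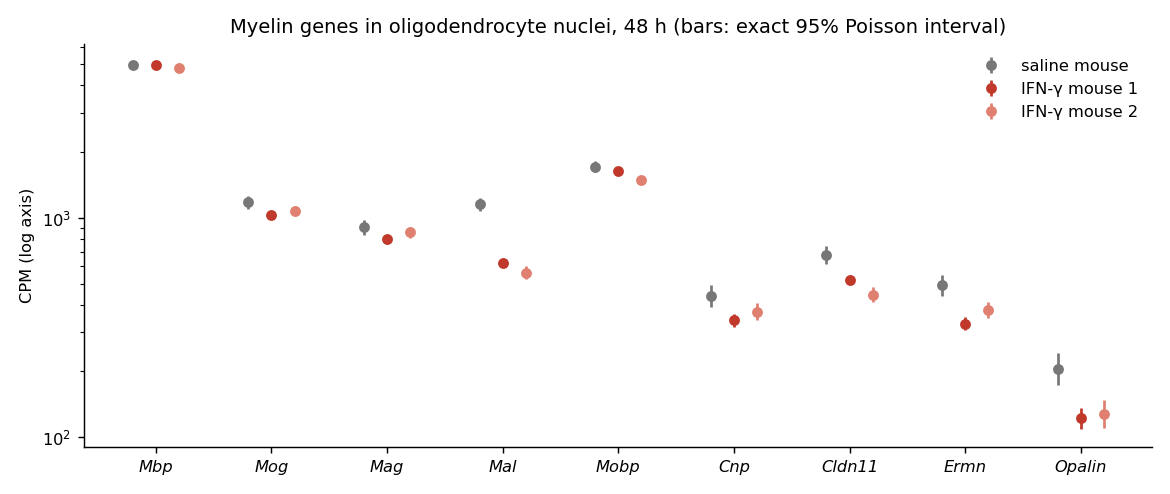
Levels of the 9 members in oligodendrocyte-like nuclei of each mouse at 48 h, in CPM on a log axis, with 95% Poisson intervals. Mal lies at 1149 CPM in the saline mouse and at 623 and 561 CPM in the IFN-γ mice, and Mbp lies between 4824 and 4978 CPM in all 3.

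Split by cluster, the Mal level also differed between clusters. In cluster 3, which all mice shared, Mal was at 750 CPM in the saline mouse and at 474 and 415 CPM in the IFN-γ mice. In cluster 10 it was at 1501 CPM in the saline mouse and at 1345 CPM in IFN-γ mouse 1, and in cluster 0, without saline nuclei, at 650 CPM in both IFN-γ mice. Opalin went from 52.2 CPM to 19.4 and 23.0 CPM in cluster 3, was at 339 and 324 CPM in cluster 10, and at 161 and 188 CPM in cluster 0. Mbp was at 5161, 5305 and 5003 CPM in cluster 3. Since cluster 10 is itself led by Mal and Opalin, these values are a description, and no test was made between clusters. A Mal UMI was found in 95.3% of the saline mouse's oligodendrocyte-like nuclei (exact binomial 91.2 to 97.8%) and in 79.7 and 79.1% of those of the IFN-γ mice. With every nucleus thinned to 2700 UMIs, leaving out 39, 177 and 18 shallower nuclei, the shares were 87.5, 73.5 and 68.8%. In neurons, which should lack Mal, the unthinned shares were 3.37, 2.90 and 2.21%.

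**Figure D5:**
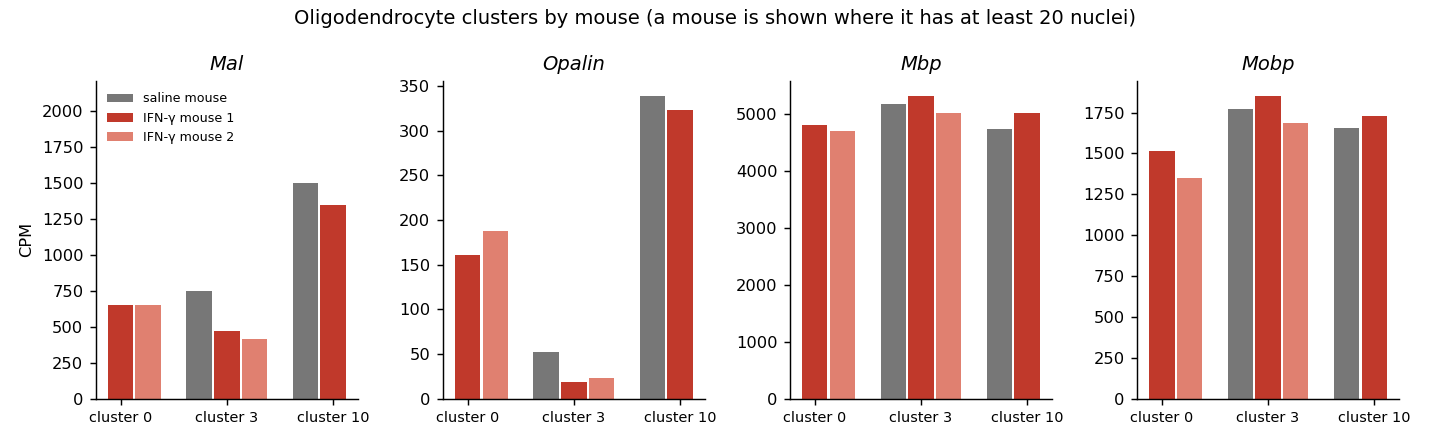
Levels of Mal, Opalin, Mbp and Mobp in the 3 oligodendrocyte-like clusters, in CPM. A mouse has a bar where it has at least 20 nuclei in the cluster. In cluster 3 Mal lies at 750 CPM in the saline mouse and at 474 and 415 CPM in the IFN-γ mice. Cluster 0, without saline nuclei, has no saline bar. Cluster 10 has no bar for IFN-γ mouse 2, which had 6 nuclei there.

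Over the 42 NeuN- wells, the non-member genes whose log2 CPM followed the members' mean standardised log2 CPM most closely, of 6652 ranked, were A230001M10Rik (Pearson r = 0.95), Mast4 (0.945), Kcnq3 (0.938), Plekhh1 (0.937) and Prickle2 (0.936). Among the members, Mbp and Mog varied most closely together (r = 0.875), followed by Mobp and Cldn11 (0.852) and by Mog and Mobp (0.81). The loosest pairs were Mag with Cnp (0.000543), Ermn with Opalin (0.207) and Mag with Opalin (0.208). These values are descriptions across wells that share libraries, depth and treatment, and a low r for a gene of few UMIs such as Cnp carries counting error.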

How the data were processed

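The authors sorted nuclei on NeuN, made plate 3′ libraries with UMIs, aligned them with STAR to GRCm38 and deposited a table of UMI counts per gene and well, with no normalization. Single nuclei (10x 3′ libraries, reads over whole gene bodies, doublets removed by the authors) were deposited as a table of UMI counts per gene and nucleus. Both tables were used (2 files, 0 columns without a sample). The labels' growth text also names a floxed cross, which belongs to none of these samples. A NeuN- well held at least 20962 UMIs and a NeuN+ well at least 277113, so genes of few UMIs are imprecise.

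Counts were tested with the quasi-likelihood test of edgeR 4.0.16 (R 4.3.3, TMM factors, filterByExpr, Benjamini-Hochberg adjustment over all genes tested): IFN-γ against saline for each time and fraction, the interaction of fraction and treatment, NeuN+ against NeuN- over saline wells, and the difference of the effect between times. As in the study, a call needed |log2 fold change| over 1 (0.5 between fractions, 3 in nuclei) and adjusted p under 0.01. Nuclei were clustered with Leiden (leidenalg 0.10.2) on 30 principal components of 2000 variable genes without the 9 members, 15 neighbours, resolution 1. Counts of the oligodendrocyte-like clusters were summed per mouse and tested for genes with at least 10 UMIs summed over the 3 mice. Doublets were not called again. A table of cell annotations was not used here.

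All 9 members are named, and for each other list and comparison up to 3 called genes per direction by size of change. Also named are the interferon and sex-linked checks and the 5 genes most like the members (mean of at least 20 CPM). Clusters were described by their leading genes. Some genes that the rule names are not reported here. Members, lists and tests were chosen with earlier results of these data known. The wells carry no replicate number in the labels, and numbers given here are in accession order. Alternatives were RLE factors, DESeq2 1.42.0, no filter, Xist as a covariate, saline wells of all times, 1 fit per fraction, other clustering settings, and leaving out each well. The scripts were tested on simulated data. The fit within wells low in Xist and the summed near-identical pair were added after seeing the data.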

Additional observations from a re-analysis of the deposited data

Results flagged for a closer look

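In 144 groups of wells (a member in a group of 4 to 10 wells), 9 had a well that stood apart from the rest by Dixon's test at the 95% level, and chance gives about 1 in 20 groups. In NeuN- wells these were the lowest Ermn (143.1 CPM, next 339.1 CPM) and the highest Opalin (286.2 CPM, next 147 CPM) of the 6 h IFN-γ wells, both in the well of 20962 UMIs, the lowest Cldn11 of the 24 h IFN-γ wells (20.09 CPM, next 69.03 CPM), and the highest Cnp of the 48 h IFN-γ wells (105.2 CPM, next 67.5 CPM). In NeuN+ wells they were the highest Mbp at 48 h (121 CPM, next 101.9 CPM), the lowest Mag at 6 h (12.2 CPM, next 17.98 CPM), the highest Cnp at 6 h (11.85 CPM, next 6.456 CPM) and at 24 h (16.6 CPM, next 6.253 CPM), all with IFN-γ, and the highest Ermn of the 24 h saline wells (19.46 CPM, next 14.32 CPM).

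The IFN-γ effect differed between groups of wells in 25 tests (edgeR, log2 scale). Between fractions, NeuN+ minus NeuN-, it differed at 24 h for Mbp (1.256), Mog (1.486), Mag (1.573), Ermn (1.639) and Opalin (1.519), and at 72 h for Mog (1.163) and Cldn11 (1.346). In NeuN- wells it was lower at 24 h than at 6 h for Mog (-1.155), Mag (-1.419) and Cldn11 (-1.472). It was lower at 24 h than at 48 h for Mbp (-1.747), Mog (-2.13), Mal (-1.551), Mobp (-1.187), Cldn11 (-1.263) and Ermn (-1.119), and lower than at 72 h for Mbp (-1.683), Mog (-1.985), Mal (-1.478), Cldn11 (-1.202) and Ermn (-1.665). In NeuN+ wells it was higher at 24 h than at 6 h for Opalin (2.409), lower than at 48 h for Mog (-1.288), and lower than at 72 h for Mbp (-1.023) and Mog (-1.6).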

How the results depend on the processing

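Of 4850 member values recomputed under other settings, 4783 stayed on their side of the threshold, 37 lost a call and 30 gained one. No called value changed sign, and 85 values of members not called had the other sign, all with a log2 difference of at most 0.50 as reported. The number of members called moved by over 1.5 times in these cases, whose cause was not tested. In NeuN+ wells 2 members were called at 6 h with the saline wells of all times (0 with those of 6 h), and 1 at 72 h with DESeq2 and with the saline wells of all times (0 otherwise). In the comparison of 24 h with 48 h, 3 were called in NeuN- wells without the filter on low counts (6 with it) and 2 in NeuN+ wells with Xist as a covariate (1 without). Mog in NeuN- wells at 6 h was at -0.96 without the filter and at -0.98 with the saline wells of all times, Mag at 24 h at -0.89 without the filter, and Ermn at 24 h at -0.93 with Xist as a covariate, none of them called. Of the effects at 24 h against other times in NeuN- wells, Mal (-1.39), Cldn11 (-1.11) and Ermn (-0.96) against 48 h and Cldn11 (-1.06) against 72 h lost their calls without the filter, and Ermn against 48 h with Xist as a covariate (-0.90).

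With each well left out in turn, 2 to 3 members were called at 6 h, 6 to 7 at 24 h, 0 at 48 h and 0 to 1 at 72 h in NeuN- wells, and 0 to 2 at 6 h, 0 at 24 h, 0 at 48 h and 0 to 1 at 72 h in NeuN+ wells. It gave 5 to 6 in the interaction at 24 h, 1 to 3 at 72 h and 8 to 9 between fractions. In NeuN- wells the comparison of 24 h with 6 h gave 3 to 4, with 48 h 5 to 6 and with 72 h 5 to 6, and in NeuN+ wells these gave 0 to 1, 0 to 1 and 1 to 3.

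Counts over all genes moved more. NeuN- wells at 24 h had 275 calls, and 535 with DESeq2, 639 without the filter and 531 in 1 fit of the fraction. At 48 h they had 33, and 56 without the filter, 21 with all saline wells and 58 in 1 fit, and at 72 h 33, and 20 with all saline wells. NeuN+ wells had 163 at 24 h and 297 without the filter, and at 48 h 17, and 40, 11 and 28 under the same 3 settings. Without the filter the interaction had 21 calls at 48 h (8 with it) and 40 at 72 h (26), 24 h against 48 h in NeuN- wells 111 (177), and 24 h against 6 h in NeuN+ wells 111 (66). The comparison of fractions had 2725 calls, 6600 with DESeq2 and 7030 without the filter, and nuclei had 73, 26 with DESeq2 and 137 at a limit of 1. Leaving out 1 well gave 4 to 5 calls in the interaction at 48 h, and 35 in place of 62 for 24 h against 48 h in NeuN+ wells without saline 48 h well 2. In the interaction, higher and lower calls were 56 and 95 at 6 h (75 and 77 with RLE, 74 and 76 with DESeq2), 150 and 172 at 24 h (186 and 141, 209 and 134), and 19 and 7 at 72 h (31 and 6 with DESeq2). With DESeq2 the median of all genes moved by 0.41 in the interaction at 24 h, 0.21 at 6 h, 0.90 between fractions and 0.12 in NeuN- wells at 24 h.

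No paired analysis was possible because the wells carry no replicate number in the labels. The depth of NeuN- wells limits Cnp, which was under the filter in every comparison of IFN-γ with saline within a fraction. In NeuN+ wells Mal at 6 and 24 h and Opalin at 6 h were also under the filter.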
